A study of Taeniopygia guttata with 22 samples.

Results

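The RNA of nucleus RA was compared between 5 male and 5 female zebra finches at 20 days posthatch, which are 10 of the 22 libraries of a series that also holds 7 females and 5 males at 50 days. RA, the robust nucleus of the arcopallium, was cut out of frozen brain sections by laser capture. cDNA was made from 1 ng of its RNA with a SMART-Seq v4 kit, which primes on the poly(A) tail. The labels give no treatment or genotype for any bird, and report that no bird sang before it was killed shortly after the lights came on. All members of the 4 groups were chosen by their labelled sex and age, and each library carries its own brain number. No source used here says more of how the birds were related, so p-values measure the spread between these samples.

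RA sends the song circuit's commands out of the forebrain, and its projection neurons drive the brainstem cells that move the vocal organ and the breathing muscles. In this species males learn to sing and females do not, and RA becomes far larger in males as the birds grow up. Sex chromosomes run the other way round from mammals: males carry a pair of Z chromosomes, and females carry a Z and a small W that has lost most of its genes. Birds have no known mechanism that silences or doubles a whole Z, and many Z genes give more RNA in males in the tissues that have been studied.

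At 20 days the female libraries were sequenced to 49.12 M to 65 M counts and the male libraries to 16.17 M to 22.35 M, so sex and depth cannot be told apart there. At 50 days both depths occur in both sexes, but the greater depth was reached by 1 of 7 female and 3 of 5 male libraries. That female library is replicate 6, at 51.6 M counts, and its brain number resembles that of replicate 5. A model with depth as a term takes its depth effect from the 50-day libraries, so that effect rests on few deep libraries and mainly on 1 in females. Markers of projection neurons were present in all 10 libraries at 20 days. No tissue from around RA was compared, so these markers do not show how cleanly RA was cut out. SLC17A6, the glutamate transporter of projection neurons, stood at 551 to 807 CPM (counts scaled to library size) in males and 588 to 698 in females. The summed level of the 28 markers of GABAergic interneurons was 2929 to 3491 CPM in males and 3073 to 3254 in females, and the sums for myelin, astrocyte, microglial, vascular, fibroblast and red blood cell markers also overlapped between the sexes. The myelin protein MBP varied widely within both, from 77.2 to 756 CPM in males and 49.3 to 816 in females. In tissue samples such as these, fewer cells of a type and less RNA per cell cannot be told apart.

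Most of the genes that differed between the sexes at 20 days were Z-linked. Of 16004 genes tested with edgeR's quasi-likelihood test, 337 (2.11%) had a Benjamini-Hochberg adjusted p under 0.05 and are referred to as called, 308 (1.92%) higher and 29 (0.181%) lower in males. Z-linked genes made up 4.11% of the genes tested and 281 of the 337 calls. All 281 were higher in males, which is 42.7% of the 658 Z-linked genes tested. No Z-linked gene was called lower in males by edgeR, DESeq2 or voom, and none reached an unadjusted p under 0.05 in that direction. Of 12921 autosomal genes 43 (0.333%) were called, 16 higher and 27 lower, and of 2419 genes without a chromosome class 11 were higher and 2 lower. The autosomal count depended on the tool: DESeq2 called 48 autosomal genes higher and 71 lower, with 329 of its 487 calls on Z, and voom called 52 higher and 58 lower, with 314 of its 442 calls on Z. With depth as a term edgeR called 187 genes, of which 169 were Z-linked, 8 autosomal and higher and 7 autosomal and lower. The median log2 fold change of Z-linked genes was 0.68 with that term and 0.69 without it. All 281 called Z-linked genes kept their sign.

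Levels in single libraries gave the same picture. Every male library lay above every female library in 416 of all genes tested (2.6%), in 319 of the Z-linked genes (48.5%) and in 72 autosomal genes (0.557%). The reverse, every female above every male, was seen in 161 of all genes (1.01%), in 143 autosomal genes (1.11%) and in 0 Z-linked genes. The median log2 fold change, male over female, was 0.69 for Z-linked genes, a fold of 1.61, against −0.02 for autosomal genes and −0.01 for all genes. A Z level was also taken for each library. Each gene's log2(CPM+1) was set relative to its mean in the 10 libraries, and the autosomal median of these values was subtracted from the Z-linked median. The 5 males had a Z level of 0.308 ± 0.0205 (SD, n = 5), and the 5 females had one of −0.298 ± 0.0136 (SD, n = 5). The difference of 0.606 had a two-sided exact permutation p of 0.00794, the smallest that 5 against 5 allows, and no male library came near a female one.

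**Figure D1:**
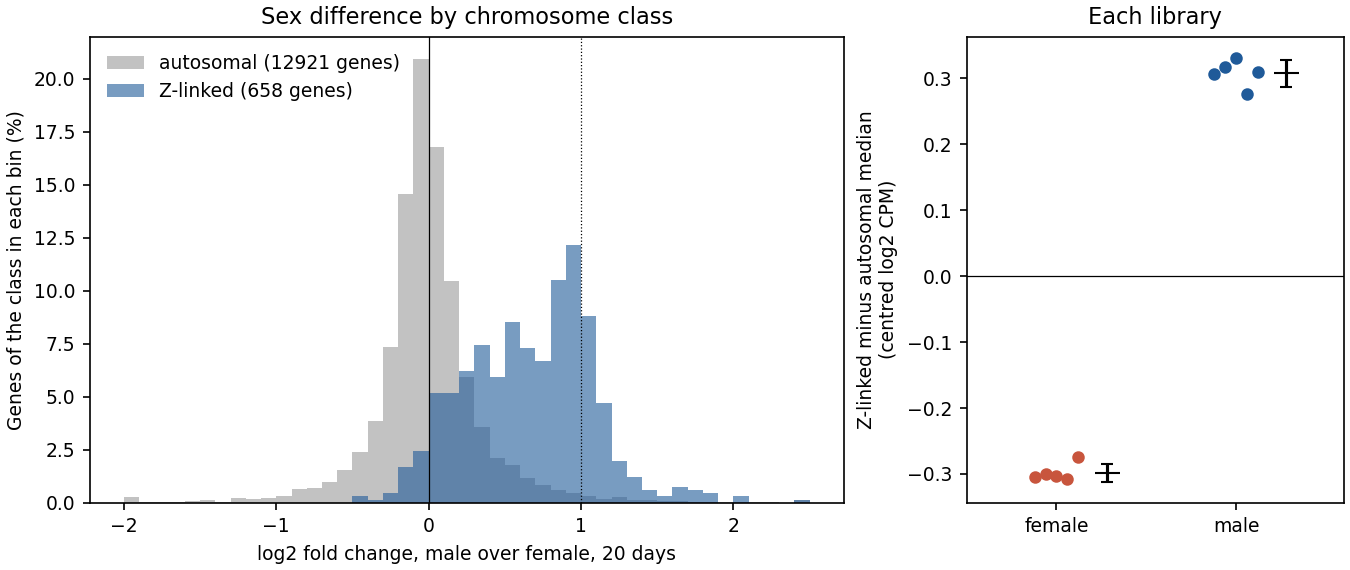
Left, the share of genes of each class (%) in each bin of the log2 fold change, male over female at 20 days, with values beyond the axis placed in the end bins and a dotted line at a log2 fold change of 1; autosomal genes centre near 0 and Z-linked genes lie mostly between 0 and 1. Right, the Z level of each library, with the mean and SD beside the points: males lie at 0.2755 to 0.3309 and females at −0.3076 to −0.2742.

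Of the 6 tested genes that the annotation places on W, 1 had every female above every male. This gene, ID115492298, was at 2.43 to 5.24 CPM in females and 0.0468 to 1.35 in males and missed the call (edgeR adjusted p = 0.149). In all, 0 of the 6 were called by edgeR, with 1 at an unadjusted p under 0.05 and 1 called by DESeq2 and by voom, and 5 had a mean above 1 CPM in males, which carry no W. Whether reads of related genes were counted there was not tested. The labelled sexes are therefore checked by the Z level and not by W.

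Within Z the size of the difference ranged from none to more than 2-fold. In 33 of the 658 genes the fitted level was lower in males, in 123 it was up to 1.25-fold higher, in 121 it was 1.25-fold to 1.5-fold higher, in 250 it was 1.5-fold to 2-fold higher, and in 131 at least 2-fold higher. The lower and upper quartiles were log2 fold changes of 0.35 and 0.95. For 105 Z-linked genes the 95% interval excluded a level 1.5-fold higher in males. Calls were fewer at low levels, where the error was larger. In the lowest of 4 bins of Z genes by level (0.119 to 4.651 CPM) 5 of 165 were called and the median SE was 0.49, whereas in the highest bin 96 of 165 were called with a median SE of 0.10. The median log2 fold change went from 0.79 in the lowest bin through 0.76 and 0.59 to 0.57 in the highest.

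Genes with a difference near the 2-fold step were found all along Z. In 13 consecutive windows of 50 tested genes the median log2 fold change was 0.44 to 0.82, and 11 to 30 genes of each window were called. The lowest median and the fewest calls were in the window at one end of the chromosome, where 8 of the 50 genes had a lower fitted level in males. The 8 outermost tested genes there, a run chosen after its values were seen, had log2 fold changes of −0.15 to 0.14 with a median of −0.03. None of the 8 was called by edgeR, DESeq2 or voom and none had an unadjusted p under 0.05, and for 6 of them the 95% interval lay below the Z median of 0.69. They include SEC11C, a subunit of the signal peptidase, and NARS1, the cytosolic asparaginyl-tRNA synthetase. SEC11C was at 54.2 to 69.6 CPM in males and 53.7 to 72.9 in females, and NARS1 at 144 to 176 and 130 to 174, so that both overlapped throughout. The next gene inwards, ELAC1, which processes the ends of tRNAs, was at 18.3 to 28.9 CPM in males and 8.66 to 13.2 in females, with a log2 fold change of 0.95 ± 0.19 (SE, n = 5 and 5; edgeR adjusted p = 0.00285). At 50 days the same 8 genes had a median of 0.03, within a range of −0.57 to 1.13. Both ends of that range were called by edgeR at 50 days. ID100220399 was higher in males (1.13, edgeR adjusted p = 1.63e-08) and ID115491045 was lower (−0.57, edgeR adjusted p = 0.000545). Among 36 autosomes with at least 20 tested genes the medians ran from −0.10 to 0.02, and no autosome had more than 0.957% of its genes called.

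**Figure D2:**
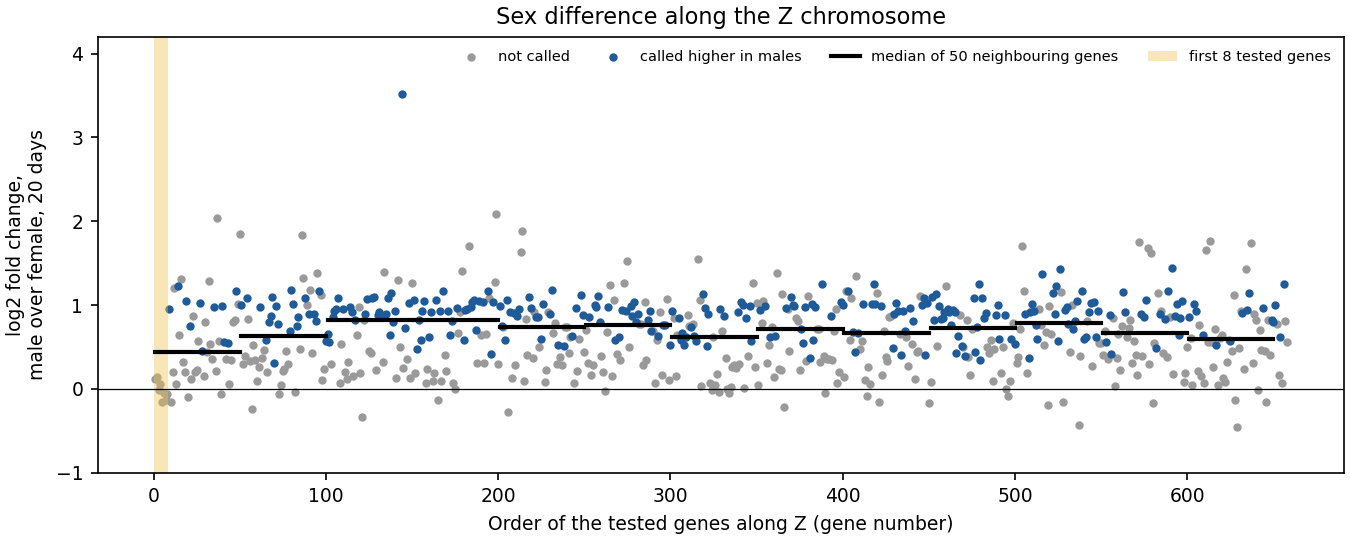
The log2 fold change, male over female at 20 days, of each tested Z-linked gene, in the order of the genes along Z (gene number, not distance). Blue points are called higher in males, black bars are the medians of 50 neighbouring genes (0.44 to 0.82), and the shaded strip marks the 8 outermost genes, which lie at −0.15 to 0.14.

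A list of Z genes that have kept a copy on the W of birds, compiled from other bird species, was compared with the rest of Z. Of its 41 tested genes 25 were called higher in males and 0 lower, with a median log2 fold change of 0.58, against 256 of 617 and a median of 0.71 for the other Z-linked genes. The listed genes were more abundant, with a median of 68.1 CPM against 21.6, and 2 of 41 were at least 2-fold higher in males against 129 of 617. SNX2, a sorting nexin of the endosome, was at 192, 173, 184, 201 and 169 CPM in the males and 76.8, 91.1, 84.3, 94.6 and 94.0 in the females. Its log2 fold change of 1.06 ± 0.08 (SE; edgeR adjusted p = 1.93e-08) was the largest of the list, with BTF3, a factor of nascent polypeptide handling, at 1.05 ± 0.13 and SPTLC1, which begins sphingolipid synthesis, at 0.99 ± 0.09. At the other end VCP, an ATPase that extracts proteins for degradation, was at 325 to 377 CPM in males and 325 to 365 in females (log2 fold change −0.03 ± 0.07; edgeR adjusted p = 0.946). ZSWIM6 was at −0.17 ± 0.21 and was not called. CHD1, the chromatin remodeller used to sex birds by its Z and W copies, was at 35.8 to 41.8 CPM in males and 29.7 to 33.8 in females, which did not overlap, but with a log2 fold change of 0.28 ± 0.09 it missed the call (edgeR adjusted p = 0.170).

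Protein complexes built from Z-linked and autosomal subunits showed the chromosome difference within a single machine. Over lists of subunits of the cytosolic and mitochondrial ribosome, oxidative phosphorylation, the proteasome and Mediator, 10 of 12 Z-linked genes were called higher in males by edgeR. DESeq2 called 11 and voom 12, and edgeR called 42.7% of all Z-linked genes. All 12 had a fitted level above that of females, with a median log2 fold change of 0.99, a fold of 1.99. Of 259 autosomal subunit genes 0 were called by edgeR, DESeq2 or voom, 3 had an unadjusted p under 0.05, and the median was −0.00. Over all autosomal genes edgeR called 0.333%, so a count of 0 is near that share. For 240 of the 259 the 95% interval lay within 1.5-fold in both directions. Of the 12 Z-linked genes 7 were also called with depth as a term.

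In the mitochondrial ribosome list all 4 Z-linked genes were called, against 0 of 64 autosomal genes with a median of 0.01. MRPS27 was at 1.02 ± 0.11 (log2 fold change ± SE), MRPS30 at 1.01 ± 0.09, MRPL17 at 0.99 ± 0.11 and MRPS36 at 0.96 ± 0.15. MRPS36 is listed by its name, and its place in that ribosome was not checked. MRPS30 was at 97.2, 99.1, 94.7, 96.1 and 86.8 CPM in the males and 46, 52.2, 49.6, 44 and 43.2 in the females, so the lowest male stood far above the highest female. In the cytosolic ribosome RPS6, a small-subunit protein phosphorylated on growth signals, was at 200 to 242 CPM in males and 92.2 to 113 in females (1.05 ± 0.08; edgeR adjusted p = 3.56e-08). RPS23 was called at 0.94 ± 0.18, and RPL37 at 0.70 ± 0.20 was not (edgeR adjusted p = 0.0767; DESeq2 and voom called it), against 0 of 67 autosomal genes with a median of 0.02. In oxidative phosphorylation the ATP synthase genes ATP5F1A (0.69 ± 0.06) and ATP5ME (1.00 ± 0.19) and the complex I gene NDUFS4 (0.99 ± 0.13) were called. COX7C of cytochrome oxidase, at 0.45 ± 0.15, was not (edgeR adjusted p = 0.202), although its males, at 222 to 273 CPM, all lay above its females, at 144 to 214. The 70 autosomal genes of that list had a median of 0.01 and 0 calls. MED18 alone of the Mediator genes lies on Z, and it was called at 1.23 ± 0.18 against a median of −0.08 for 30 autosomal subunits. The 28 proteasome genes are all autosomal, and their median was −0.07.

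**Figure D3:**
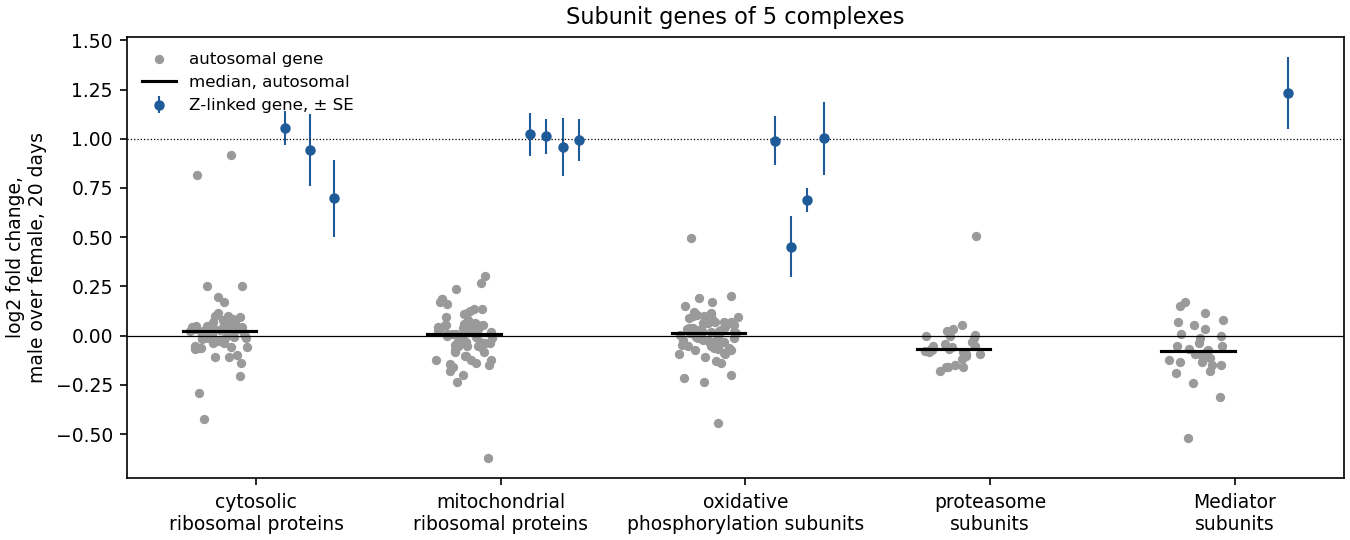
The log2 fold change, male over female at 20 days, of each subunit gene of the 5 complexes. Grey points are autosomal genes with their median as a bar, blue points are Z-linked genes with their SE, and a dotted line marks a log2 fold change of 1; the Z-linked genes lie between 0.4519 and 1.233 and the autosomal medians near 0.

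Some Z genes have been studied in the song system before, and these did not behave alike. HSD17B4, a peroxisomal enzyme that oxidises fatty acids and oestradiol, was at 188, 167, 207, 187 and 188 CPM in the males and 89.6, 93.0, 89.8, 91.9 and 90.8 in the females. The females lay within a narrow band and the males were all above it, with a log2 fold change of 1.04 ± 0.07 (SE; edgeR adjusted p = 2.84e-09). NTRK2, the receptor for BDNF, was at 541, 529, 754, 564 and 612 CPM in the males and 378, 373, 381, 298 and 371 in the females (0.74 ± 0.10; edgeR adjusted p = 2.48e-05). SCAMP1, a protein of secretory carrier membranes, rose by less, 0.37 ± 0.07 (edgeR adjusted p = 0.00253). The growth hormone receptor GHR, at 4.86 to 9.79 CPM in males and 4.56 to 8.09 in females, did not pass the test, at 0.14 ± 0.20. VLDLR, a reelin receptor, was at 0.35 ± 0.15 and did not pass either. In all, 3 of the 8 tested genes of this list were called, with a median of 0.36, against 42.7% of all Z-linked genes called.

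The Z-linked genes with the largest named differences span several functions. Those at 5 CPM or more whose groups did not overlap were led by F2R, the thrombin receptor, at 39.5 to 46.9 CPM in males and 11.7 to 25.3 in females (log2 fold change 1.37 ± 0.24, SE; edgeR adjusted p = 0.000685). ITGA2, an integrin that binds collagen, was at 20.7 to 25.5 CPM against 7.79 to 12.4. GRHPR, which reduces glyoxylate, ACAA2, a thiolase of mitochondrial fatty acid oxidation, and RMI1, a DNA repair factor, had log2 fold changes of 1.25 ± 0.22, 1.23 ± 0.17 and 1.25 ± 0.23. TXN, the thioredoxin that reduces protein disulfides, was at 304, 333, 286, 344 and 326 CPM in the males and 141, 149, 163, 127 and 125 in the females (1.18 ± 0.14; edgeR adjusted p = 2.88e-06). SELENOP, which carries selenium to cells, was at 303 to 479 CPM against 151 to 197 (1.17 ± 0.22).

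In 4 lists of neural genes the members called by edgeR were Z-linked, as were most calls over all genes, with 42.7% of all Z-linked genes called. Among 53 axon guidance genes, 4 of them Z-linked, 2 were called, RGMB, a repulsive guidance molecule (0.90 ± 0.11), and SEMA6A, a transmembrane semaphorin (0.42 ± 0.11), while the 49 autosomal members had 0 calls by edgeR, DESeq2 or voom, 4 with an unadjusted p under 0.05, and a median of −0.09. Among 35 synaptic vesicle and release genes, 5 of them Z-linked, 1 was called, RAB3C, a vesicle GTPase, at 148 to 245 CPM in males and 88.4 to 119 in females (0.81 ± 0.14). Among 55 potassium and HCN channels, 2 of them Z-linked, 1 was called, KCNN2, a calcium-activated potassium channel, at 26.5 to 32.9 CPM against 17.3 to 20.7 (0.63 ± 0.12). Among 52 neurotrophins and growth factor receptors, 8 of them Z-linked, 2 were called, NTRK2 and IL6ST, the shared receptor of the interleukin-6 family (0.41 ± 0.10). DESeq2 and voom also called autosomal members, named after their values were seen. Both called the potassium channel KCNJ6, lower in males (−0.31 ± 0.09; edgeR adjusted p = 0.0879). DESeq2 called the growth factor IGF1 (0.58 ± 0.16; edgeR adjusted p = 0.0785) and voom the sorting receptor SORCS3 (0.76 ± 0.25; edgeR adjusted p = 0.178). The calls of SEMA6A and IL6ST were lost in 9 and 8 of the 10 fits that each left out 1 library.

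Cholesterol synthesis genes were called in both directions. HMGCS1, a synthase at the start of the pathway, and STARD4, which carries cholesterol between membranes, are Z-linked and were higher in males. HMGCS1 was at 709, 591, 493, 600 and 469 CPM in the males and 351, 353, 452, 366 and 269 in the females (0.68 ± 0.12; edgeR adjusted p = 0.000746). The highest female came close to the lowest male without reaching it. STARD4 was at 0.93 ± 0.10. SQLE, the autosomal squalene epoxidase further down the pathway, was lower in males, at 107, 84.0, 88.8, 81.5 and 72.2 CPM against 115, 110, 123, 121 and 123 (−0.45 ± 0.12; edgeR adjusted p = 0.0441). Its call was lost in 9 of 10 fits without 1 library, with an adjusted p of up to 0.146. The 18 autosomal members had a median of 0.16.

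Of 32 tested cell cycle genes 2 were called, both on Z, where 42.7% of all tested genes were called. These were the kinetochore genes CENPK, at 108 to 130 CPM in males and 55.8 to 68.8 in females (0.95 ± 0.08), and CENPH (0.93 ± 0.14). The 30 autosomal members had a median of 0.28, 23 of them above 0, but 0 calls by edgeR, DESeq2 or voom and 1 unadjusted p under 0.05. The summed level of the list was 401.7 to 445.8 CPM in males and 305.6 to 343.6 in females. Without CENPK and CENPH it was 265.2 to 305.1 against 220.8 to 267.0, and the sexes overlapped. Among 34 cell death and survival genes 2 were called, against 2.11% of all genes tested. DAPK1, a Z-linked death-associated kinase, was higher (0.57 ± 0.13), and the autosomal PAWR, a protein that promotes apoptosis, was lower in males. PAWR was at 5.90, 8.15, 8.49, 7.01 and 9.68 CPM in the males and 15.3, 10.4, 13, 14.4 and 14.8 in the females (−0.79 ± 0.21; edgeR adjusted p = 0.0408), and its call was lost in 8 of 10 fits without 1 library.

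The 16 autosomal genes that edgeR called higher in males differed in how firmly they stood, and DESeq2 and voom called 48 and 52. GBGT1, a glycosyltransferase that extends the glycolipid globoside, was at 18.2, 9.27, 21, 11.3 and 23.7 CPM in the males and 7.23, 7.21, 2.81, 1.39 and 1.85 in the females. The groups did not overlap, and the fold was 4.07 (log2 fold change 2.03 ± 0.43, SE; edgeR adjusted p = 0.00659). The call held in all 10 fits without 1 library but not with depth as a term (1.95, edgeR adjusted p = 0.227). ANP32A, a nuclear phosphoprotein that inhibits a phosphatase, was at 19.2, 17.8, 18.5, 20.4 and 17.3 CPM against 5.16, 10.3, 5.33, 11 and 11.3 (1.11 ± 0.26; edgeR adjusted p = 0.0159). The males were tightly grouped, and the call was lost without female replicate 1 or 3 (edgeR adjusted p = 0.0567 and 0.0550). The call was also lost with depth as a term (0.95, edgeR adjusted p = 0.424). FABP3, a fatty acid carrier, was at 44.0 to 57.2 CPM in males and 18.3 to 41.5 in females (0.85 ± 0.23; edgeR adjusted p = 0.0492). Its call was lost in 9 of the 10 fits, but it passed with depth as a term (1.53; edgeR adjusted p = 0.00619). The others named by the rule were MAML2, a coactivator of Notch signalling (0.90 ± 0.21), CNTD1, a cyclin-domain protein of meiosis (0.78 ± 0.19), AKAP13, a kinase anchor (0.65 ± 0.16), CHST15, a chondroitin sulfotransferase (0.65 ± 0.16), and FHOD3, an actin formin (0.64 ± 0.15). Each of these lost its call in 4 to 8 of the 10 fits. Of all the autosomal genes called higher, 4 of 16 were called with depth as a term. All 16 kept their sign, with a median log2 fold change of 1.03 with that term and 0.92 without it.

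TXNRD1, the reductase that regenerates thioredoxin, and ENDOD1, a putative endonuclease, overlapped between the sexes at 20 days and are named after their values were seen. TXNRD1 was at 15.5, 4.42, 12, 8.66 and 4.47 CPM in the males and 4.73, 1.77, 0.81, 2.15 and 1.99 in the females, where only the first female reached the lowest males (1.97 ± 0.42, SE; edgeR adjusted p = 0.0064). At 50 days the same gene was at 9.75 to 19.5 CPM in males and 0.854 to 2.51 in females, with no overlap (3.13; edgeR adjusted p = 1.89e-06). ENDOD1 was at 20.4 to 54.1 CPM in males and 16.6 to 22.2 in females at 20 days (0.94, called in 8 of 10 fits without 1 library) and had a log2 fold change of 1.92 at 50 days. With depth as a term the 20-day calls of TXNRD1 and ENDOD1 were lost (edgeR adjusted p = 0.239 and 0.132). Their fitted log2 fold changes with that term were 1.97 and 1.11.

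Genes lower in males were autosomal in 27 of 29 cases, and most of the differences were under 2-fold. SLC35F5, of a family of solute carriers, was at 64.3, 65.2, 48.0, 46.7 and 50.4 CPM in the males and 97.8, 105, 69.0, 90.6 and 93.4 in the females (log2 fold change −0.73 ± 0.13, SE; edgeR adjusted p = 0.000746). Every male was below every female. The call held in all 10 fits without 1 library but not with depth as a term (−0.57, edgeR adjusted p = 0.251). FILIP1L, which binds the actin crosslinker filamin, was at 40.2 to 74.1 CPM in males and 78.2 to 111 in females (−0.68 ± 0.15; edgeR adjusted p = 0.00854). PAK6, a kinase activated by small GTPases, was at 103 to 133 against 134 to 211 CPM (−0.56 ± 0.12), the nearest pair of libraries almost touching. With depth as a term the calls of FILIP1L and PAK6 were lost too (−0.67 and −0.57, edgeR adjusted p = 0.264 and 0.227). PAIP2B, a repressor of translation that binds the poly(A)-binding protein, was at 39.6 to 54.1 against 56.1 to 69.6 CPM (−0.51 ± 0.12; edgeR adjusted p = 0.0140), and kept its call in 7 of the 10 fits. DIS3L, an exonuclease of the cytoplasmic exosome, C26H6orf89 and LONRF1, a RING finger protein, had log2 fold changes of −0.49, −0.49 and −0.48 and lost the call in 6 or 7 of the 10 fits. MKRN1, a ubiquitin ligase named after its values were seen, was at 308, 294, 282, 267 and 313 CPM in the males and 374, 409, 365, 394 and 386 in the females (−0.40 ± 0.07; edgeR adjusted p = 0.0006), and was among 3 autosomal genes called lower that also passed with depth as a term (−0.52; edgeR adjusted p = 0.00394). Of the 18 GABA and glycine receptor genes 1 was called, against 0.333% of all autosomal genes. It was GABRD, the delta subunit of extrasynaptic GABA receptors, at 58.9 to 83.2 CPM in males and 70.7 to 122 in females (−0.55 ± 0.14, edgeR adjusted p = 0.0344). That call was lost in 8 of the 10 fits. For TMEM269 and FGB, named after their values were seen, a large fall rested on few female libraries. TMEM269 was at 94.7 and 41.0 CPM in 2 females and at no more than 6.82 in the others, and FGB, a fibrinogen chain made by liver, was at 42.6 CPM in 1 female and at no more than 1.87 in the other 9 libraries. Without that female, replicate 3, the edgeR adjusted p was 0.210 for TMEM269 and 0.513 for FGB.

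**Figure D4:**
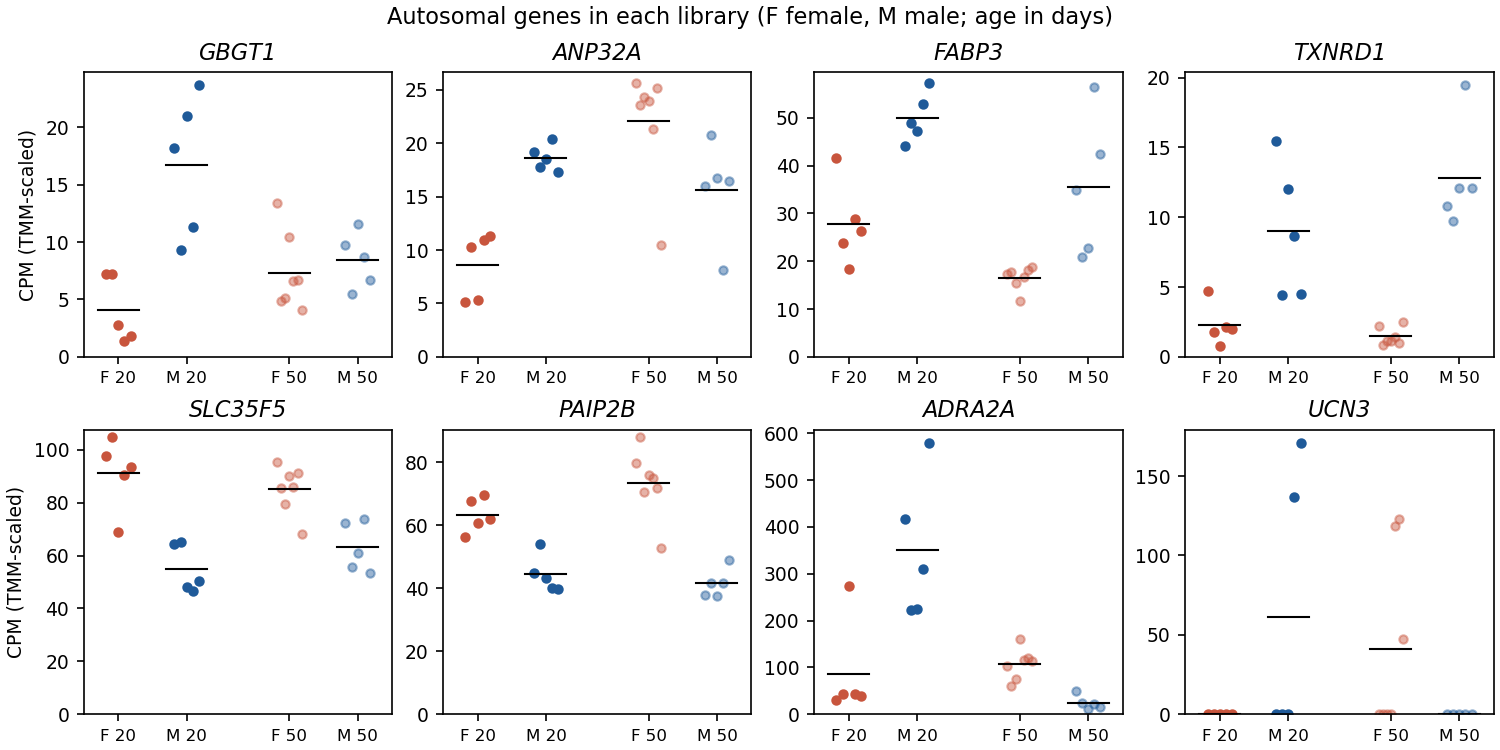
CPM of 8 autosomal genes in each library, by sex (F, M) and age (20 and 50 days), with the mean of each group as a bar. GBGT1 and ANP32A are apart at 20 days only, FABP3 and TXNRD1 are higher in males and SLC35F5 and PAIP2B lower at both ages, ADRA2A changes direction between the ages, and UCN3 is present in 2 males at 20 days and 3 females at 50 days.

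Neuromodulator genes gave a pair of patterns that a mean alone would not show, and both were picked out after their values were seen. The serotonin receptor HTR2C, also named after its values were seen, was called lower in males (log2 fold change −0.48 ± 0.11, SE; edgeR adjusted p = 0.0146). Its groups overlapped, and its call was lost in 2 of 10 fits without 1 library. HTR2C passed with depth as a term (edgeR adjusted p = 0.0269) but not on thinned counts (edgeR adjusted p = 0.107). ADRA2A, the alpha-2A adrenergic receptor, was at 418, 223, 224, 310 and 580 CPM in the males and 30.6, 43.6, 273, 43.4 and 38.8 in the females, so that 4 of 5 females lay well below every male and female replicate 3 lay among the males. Its log2 fold change was 2.03 ± 0.52 (SE; edgeR adjusted p = 0.0373) and, without that female, 3.17 (edgeR adjusted p = 1.24e-05). Leaving out any of the other 4 females, or male replicate 1, 4 or 5, ended the call, with an adjusted p of up to 0.125. Depth as a term ended it as well (2.52, edgeR adjusted p = 0.179). At 50 days the direction was opposite, with 10.4 to 49.2 CPM in males and 60.2 to 160 in females, and the sex difference differed between the ages by −4.16 (edgeR adjusted p = 0.000723, and 0.0535 with depth as a term). UCN3, the stress peptide urocortin 3, was at 137 and 171 CPM in male replicates 4 and 5 and at 0.281 CPM or less in the other 3 males and in all 5 females. At 50 days it was at 119, 123 and 47.2 CPM in 3 of 7 females and at no more than 0.135 CPM in the other females and all males. Female replicates 5 and 6 are among those 3, and their brain numbers resemble each other. edgeR called it at 20 days (adjusted p = 0.0200), and so did DESeq2 (adjusted p = 0.00224) and edgeR with depth as a term (adjusted p = 0.0450). It was not called by voom (adjusted p = 0.729) or by edgeR on thinned counts (adjusted p = 0.104). Its call was lost in 5 of 10 fits without 1 library. No fold is given because the gene was near 0 in most libraries of both sexes.

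Steroid signalling genes showed no autosomal call at 20 days, when 0.333% of all autosomal genes were called. A count of 0 in 22 is near that share. Of 23 tested steroid receptors, enzymes and cofactors HSD17B4 was called, and of the 22 autosomal ones 0 were called by edgeR, DESeq2 or voom or had an unadjusted p under 0.05, with a median of −0.00. The oestrogen receptor ESR1 was at 0.560 to 2.06 CPM in males and 0.553 to 1.92 in females, and aromatase, CYP19A1, at 0.980 to 2.48 and 1.08 to 2.73. At these levels the SE of the log2 fold change was 0.53 for ESR1 and 0.62 for CYP19A1, so a 2-fold difference in ESR1 or CYP19A1 was not detectable. SRD5A1, which reduces testosterone to a more potent androgen, was at 16.5 to 34.1 CPM in males and 19.8 to 50.4 in females and did not pass (−0.54 ± 0.27; edgeR adjusted p = 0.552).

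Channel, synapse and cell type lists had few or no calls at this age, when 0.333% of all autosomal genes were called. None was called among 9 sodium channels (median 0.05), 30 calcium channels and buffers (0.05), 23 glutamate receptors (−0.02), 16 immature neuron markers (−0.01), 28 GABAergic interneuron markers (−0.09) and 17 immediate early genes (−0.22), against −0.01 for all genes. Unadjusted p-values under 0.05 numbered 0, 4, 1, 0, 3 and 3 in these lists, against 972 of the 12921 autosomal genes tested. DESeq2 called 1 glutamate receptor and 1 immediate early gene, the last also called by voom. None was called by edgeR, DESeq2 or voom among 15 myelin (median 0.06), 10 precursor (0.02), 20 endothelial and mural (−0.04), 12 fibroblast (−0.08) and 7 red blood cell markers (−0.14), with 0, 1, 2, 1 and 1 unadjusted p-values under 0.05. Astrocyte markers leaned towards males. Of 18, with a median of 0.16, 14 had a fitted level above that of females. An unadjusted p under 0.05 was found in 6, 5 of them higher in males, against 1585 of the 16004 genes tested. Of those 5 genes 1 is Z-linked. The 17 autosomal markers had a median of 0.15, 13 of them above 0. At an unadjusted p under 0.05, 4 were higher and 1 lower, against 972 of the 12921 autosomal genes in either direction. None of the 18 passed with edgeR, and DESeq2 and voom called AQP4, the astrocyte water channel, named after its values were seen, at 756 to 1119 CPM in males and 600 to 788 in females (0.44 ± 0.13; edgeR adjusted p = 0.0788). The summed level of the list was 8050 to 11450 CPM in males and 7752 to 9527 in females, which overlapped. The part of this in other sex differences was not tested. Of the 20 arcopallial projection neuron markers 0 were called by edgeR and 2 by DESeq2 and by voom. One with groups apart was BCL11B, a transcription factor of deep-layer projection neurons in mammals, named after its values were seen, at 14.1 to 23.5 CPM in males and 25.3 to 47.7 in females (−0.91 ± 0.26; edgeR adjusted p = 0.0785). Several neuronal genes that were far apart at 50 days did not pass the test at 20 days. PVALB, a calcium buffer, was at 0.57 ± 0.24 at 20 days (edgeR adjusted p = 0.368) and at 3.11 at 50 days, and KCNC1, a Kv3 channel, at −0.09 ± 0.11 and 0.88. SCN3B, a sodium channel subunit, was at −0.11 ± 0.24 and −2.04, GAD1, which makes GABA, at −0.18 ± 0.13 and −0.84, and BDNF at 0.40 ± 0.29 and −1.18.

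At 50 days the sexes differed in 5304 genes (33.1%), and the genes called at 20 days were followed there. Of the 281 Z-linked genes 253 were called higher in males again and 0 lower, 273 had the same sign, and their median was 0.91 at 20 days and 0.89 at 50 days. Across all 658 Z-linked genes the median was 0.67 at 50 days, and the log2 fold changes at the 2 ages had a Pearson r of 0.447, a description across genes of 1 chromosome. For autosomes the picture at 50 days was much wider, with 2003 genes higher (15.5%) and 2541 lower (19.7%) in males. Of the 16 autosomal genes higher at 20 days 4 were called the same way and 2 the opposite way at 50 days. Of the 27 lower 13 were called the same way and 0 the opposite way. MKRN1, SLC35F5 and PAIP2B were among those 13.

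The test of the difference between ages called 1971 genes (12.3%), 1772 of them autosomal (13.7% of those tested) and 85 Z-linked (12.9%), but 72 in all with depth as a term. Among the 20-day calls it was passed by 37 of the 281 Z-linked genes, 9 of the 16 autosomal genes higher in males and 9 of the 27 lower. Those genes were chosen by their 20-day difference, which this test also uses. Their counts are therefore not set against the shares over all genes. SHC3, a signalling adaptor of neurons, and SETBP1, a nuclear protein that binds SET, were Z-linked genes apart at 20 days only, at 1.01 and 0.63, against −0.05 and −0.28 at 50 days. SHC3 was at 66.2 to 82.6 CPM in males and 26.1 to 41.0 in females at 20 days. REEP5, which shapes the membrane of the endoplasmic reticulum, went the other way, from 0.64 at 20 days to 1.05 at 50 days. These 3 were chosen after their values were seen, and with depth as a term none of them passed the test of the difference between ages. GBGT1 went from 2.03 to 0.21 and ANP32A from 1.11 to −0.50 at 50 days, and neither passed that test with depth as a term.

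**Figure D5:**
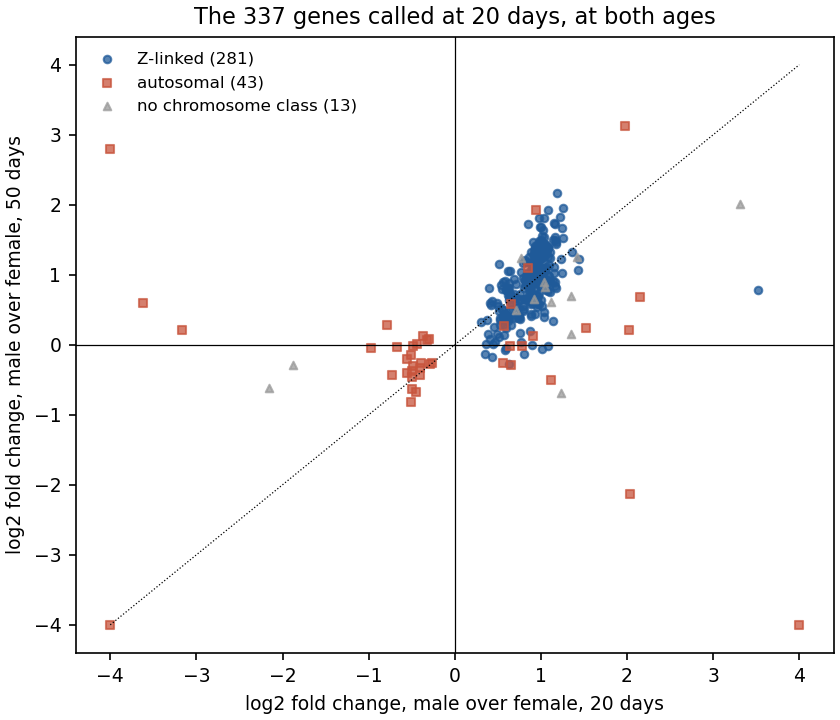
The log2 fold change, male over female, at 20 days against that at 50 days for the 337 genes called at 20 days, with values beyond 4 in either direction drawn at the edge and equality as a dotted line. Z-linked genes (circles) cluster around the line, with 273 of 281 above 0 at both ages, while autosomal genes (squares) spread to both sides of 0 at 50 days.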

How the data were processed

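The deposited values are whole-number read counts per gene and library, not normalised by the authors. The submitters' processing notes name Trimmomatic 0.36, FastQC 0.11.9 and STAR 2.6.1. No counting tool, genome build or strand setting is given in the sources used here. Of 21955 entries 169 had no gene ID and were left out, and 20923 genes had a count. Chromosome class, gene order and symbols were matched by gene ID to the RefSeq table of bTaeGut7.mat (16205 genes, 96.9% of counts), which may not be the build aligned to, so no coordinates or sequences are given. Overlapping or near-identical genes may share reads. Kit reads carry no molecular identifiers.

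All 22 libraries were fitted with edgeR 4.0.16 in R 4.3.3, with a mean for each of the 4 sex and age groups, TMM scaling and the filterByExpr filter, and p-values adjusted over 16004 genes. Levels are TMM-scaled CPM computed from the counts. Alternatives were DESeq2 1.42.0, limma 3.58.1 (voom), other scaling and filters, a replicate block, depth (above or below 40 M counts) as a term, thinning, only the 20-day groups, an adjusted p under 0.01 and leaving out each library. The scripts were tested on simulated counts. Summing female 50-day replicates 5 and 6, whose brain numbers resemble each other, was added after seeing the data.

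The comparison, lists and tests were chosen with earlier results of these data known. Genes are named by rule: called genes of at least 5 CPM without overlap (the 8 with the largest rise on Z, the 8 on autosomes, the 8 with the largest fall), up to 3 called members of each list, a fixed set, and the Z members of complexes and of the W-partner list; some of these genes are not reported here, and exceptions are marked as named after their values were seen.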

Additional observations from a re-analysis of the deposited data

Results flagged for a closer look

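In a group of 5 libraries a value was marked when its gap to the nearest of the others exceeded the Dixon limit. Chance gives such a gap in about 1 in 20 groups. The number of groups screened is not given here, so some or all of these marks may be chance. Female replicate 3 was the highest of its group for ADRA2A at 273 CPM (the others 30.6 to 43.6), FGB at 42.6 (0.235 to 1.87) and MRPS36 at 22.9 (19 to 19.8). Female replicate 4 was lowest for NTRK2 at 298 CPM (371 to 381), and female replicate 5 had the highest Z level of the females, −0.274. Among males, replicate 2 was high for BTF3 at 134 CPM (102 to 110), replicate 3 for SV2C, a Z-linked vesicle protein, at 129 (110 to 114), replicate 4 was low for IL6ST at 34.5 (41.4 to 43.8), and replicate 5 for FHOD3 at 31.3 (37.8 to 39.8).

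The sex difference in other genes differed between the ages by edgeR's test of the interaction, given here as the log2 difference at 50 days minus that at 20 days. It was negative for ADRA2A (−4.16), SCN3B (−1.93), GBGT1 (−1.82), ANP32A (−1.62), BDNF (−1.58), SHC3 (−1.07), CHST15 (−0.943), SETBP1 (−0.906), CNTD1 (−0.799), FHOD3 (−0.668) and GAD1 (−0.667). It was positive for FGB (7.92), TMEM269 (4.22), PVALB (2.53), PAWR (1.07), ENDOD1 (0.985), KCNC1 (0.972), COX7C (0.806), FILIP1L (0.65), REEP5 (0.414) and ATP5F1A (0.257). With depth as a term PVALB still passed that test (edgeR adjusted p = 0.0224) and the other 20 did not. Those of these genes that were called at 20 days were chosen by values that the test also uses.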

How the results depend on the processing

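The count of 337 calls at 20 days (308 higher, 29 lower in males) was within 1.5 times of that value under every alternative except depth as a term, which gave 187 (180 higher, 7 lower). For genes lower in males alone it was 62 with voom, 85 with DESeq2 and 8 at an adjusted p under 0.01. Leaving out each library gave 287 to 336 calls at 20 days, 269 to 305 higher and 18 to 36 lower, the last falling to 19 without male replicate 4, 18 without female replicate 4 and 19 without female replicate 5. At 50 days an adjusted p under 0.01 gave 3500 calls against 5304, and leaving out each library 4477 to 5347. The difference between ages gave 1971 calls, 72 with depth as a term, 755 at an adjusted p under 0.01 and 1506 to 2131 without each library. The Z level difference was 0.600 to 0.614 without each library and 0.604 to 0.685 under its other settings.

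Same-numbered male and female libraries deviated together with correlations of −0.0359 to 0.067, so the numbers are not taken to pair birds; a replicate block gave 314 calls, 297 of them among the 337. Genes that did not pass changed sign: ESR1 to 0.59 on thinned counts, GHR to −0.030, NARS1 to −0.020 and ZSWIM6 to 0.15 with depth as a term, SEC11C to 0.021 with voom, while leaving out each library gave −0.55 to 0.18 for ESR1 and −0.068 to 0.044 for SEC11C. The cause of these shifts was not tested. Depth limits genes of low level and the male libraries most.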
